A study of Mus musculus with 10 samples.

Results

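Antigen presentation and macrophage identity were followed in the sorted cells through 10 genes, out of 48975 genes with a summed count. Cd74 encodes the invariant chain, which escorts MHC class II molecules through the cell. H2-Aa, H2-Ab1 and H2-Eb1 encode MHC class II chains. Aif1, C1qa, C1qb, Tyrobp and Cx3cr1 mark macrophages and microglia. Gngt2 encodes a G protein gamma subunit. The genes were selected by name with results of the same control and cdKO libraries already known, so their differences between genotypes are given as a description and are not tested. All 10 were found in the count files.

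The libraries came from YFP-positive cells sorted from the dissociated spinal cords of mouse embryos at e10.5. The 5 control samples carried the driver Olig2-Cre+/- with the reporter Rosa26R-YFP+/- and were Oc1+/Flox and Oc2+/Flox. The 5 cdKO samples carried the same driver and reporter and were Oc1-/Flox and Oc2-/Flox. The controls thus also carried 1 floxed copy of each Onecut (Oc) gene. Olig2-Cre acts in motor neuron (MN) progenitors, and the study also found YFP in V3 interneurons (INs), so the sort collected more than MNs. Nothing in the labels says which samples came from separate embryos or litters, so the spread between samples may be partly technical. In such bulk samples, fewer cells of a type and less RNA per cell cannot be told apart.

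An MHC class II molecule pairs an alpha with a beta chain, and the invariant chain occupies its groove until the peptide is loaded. In immune cells, the factors RFX and NF-Y and the coactivator CIITA switch the class II chain genes and Cd74 on together. At this stage macrophages are the main immune cells of the embryo and reach the neural tube from the yolk sac.

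Each library held between 63932395 and 107709534 counts in controls and between 72315782 and 84249157 in cdKO. A count is a read on an exon bin, a stretch of exon between annotated boundaries, so a fragment crossing several bins is counted several times. A gene's summed count is therefore an upper bound on its fragments, and its highest single bin is a lower bound. Levels are counts per 1000000 summed counts (CPM) after TMM scaling, and 3 counts, the limit that a count of 0 allows, correspond to between 0.0288 and 0.0591 CPM. This limit covers counting error only. The TMM factor was 0.717 in cdKO 5 and 0.947 to 1.17 in the other samples, so values of cdKO 5 depend most on the scaling. The 11 MN lineage genes examined, among them Isl1, Lhx3 and Slit3, were all above 3 counts in every sample, with a summed level of 838 to 1110 CPM in controls and 464 to 1060 CPM in cdKO. Exon 1 of Oc1 (GRCm38, chr9:74861921-74863401), the check on the genotype labels, had 125, 80, 205, 210 and 63 counts in controls 1 to 5. It had 0, 17, 0, 3 and 0 counts in cdKO 1 to 5.

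The promoter sequences available for the class II chains are shown beside the counts along H2-Aa and H2-Eb1, described further on. Where their transcripts begin was not tested. RefSeq (GRCm38.p6) gave promoters for 5 of the 10 genes, H2-Aa, H2-Eb1, Aif1, C1qb and Cx3cr1. The last 150 bases before the annotated start are printed 5′ to 3′ on the coding strand, for H2-Aa from the minus strand at chr17:34287824-34287973 and for H2-Eb1 from the plus strand at chr17:34305717-34305866.
H2-Aa: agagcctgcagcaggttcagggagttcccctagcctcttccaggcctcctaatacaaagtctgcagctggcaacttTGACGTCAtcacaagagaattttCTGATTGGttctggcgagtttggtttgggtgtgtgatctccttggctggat
H2-Eb1: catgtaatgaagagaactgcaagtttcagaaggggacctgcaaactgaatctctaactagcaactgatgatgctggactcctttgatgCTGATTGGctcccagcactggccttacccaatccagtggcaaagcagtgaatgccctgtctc
Capitals mark exact matches, on either strand, to CTGATTGG, the Y box bound by NF-Y, and to TGACGTCA, the palindrome bound by CREB family factors. The Y box lies 43 bases before the start of H2-Aa and 54 bases before that of H2-Eb1. The palindrome was found in H2-Aa only, 66 bases before the start and apart from the Y box. Neither motif was found in the windows, 250 bases before to 50 after the start, of Aif1, C1qb and Cx3cr1. Among all 32851 promoter windows of 300 bases, 4.10% hold the Y box and 1.79% the palindrome.

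The signal of Cd74 came from a pair of samples. Its counts were 11, 11, 7, 2 and 2 in controls 1 to 5, and 16, 6401, 23, 7854 and 8 in cdKO 1 to 5. The cdKO replicates 2 and 4 thus stood far above the other 8 samples, in which no count passed 23. In CPM, Cd74 reached 76.1 in cdKO 2 and 93.6 in cdKO 4, against 0.0271 to 0.110 in controls and 0.157 to 0.282 in the other cdKO samples. Those cdKO libraries held 14255 of the 14335 Cd74 counts, and 99.42% of its summed CPM. A 95% binomial interval of that share of counts, which takes every count as independent, runs from 99.31% to 99.56%. It is too narrow even for counting error, since a fragment crossing several bins is counted several times.

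As a group value, the Cd74 level of 34.1 ± 46.8 CPM in cdKO (SD, n = 5) describes none of the 5 samples. Without replicates 2 and 4, the cdKO level was 0.214 ± 0.0633 CPM (SD, n = 3), against 0.0704 ± 0.0402 CPM in controls (SD, n = 5), a ratio of 3.05 that rests on 8 to 23 counts per cdKO sample and 2 to 11 per control. Every cdKO sample lay above every control on the TMM scale, where cdKO 5 was the lowest cdKO sample at 0.157 CPM. This did not hold after scaling by library size alone, where the lowest cdKO value was 0.113 CPM and the highest control value 0.118 CPM. Such separation was seen in 0.166% of the 30167 genes with a count on the TMM scale.

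**Figure D1:**
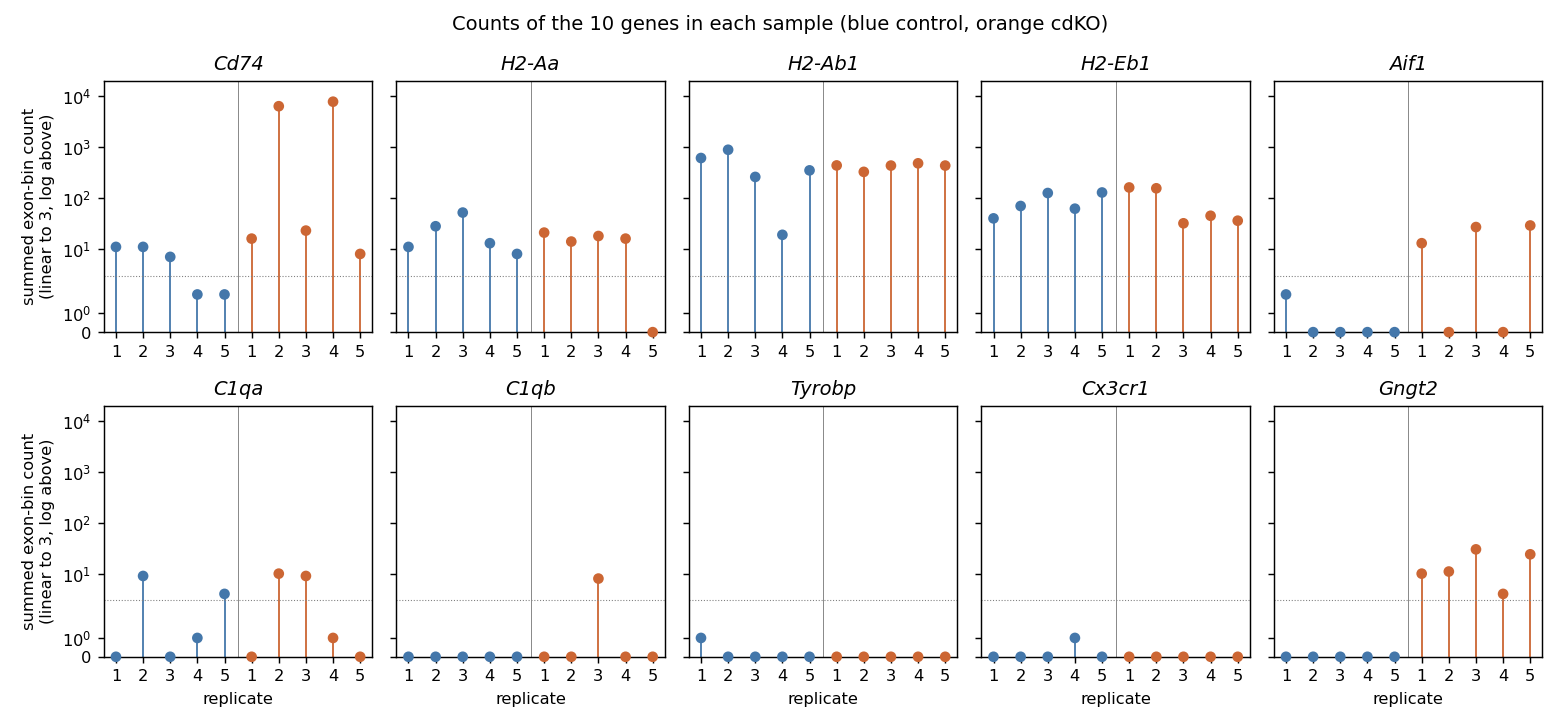
Summed exon-bin counts of the 10 genes (vertical axis, linear up to 3 and logarithmic above) in control replicates 1 to 5 (blue) and cdKO replicates 1 to 5 (orange), 1 point per sample, with a dotted line at 3 counts. Cd74 reaches 6401 and 7854 in cdKO 2 and 4 and at most 23 elsewhere, while Tyrobp and Cx3cr1 have a single count each.

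No other gene examined had this pattern. Among the 15024 genes with a mean of at least 0.5 CPM, Cd74 alone was at least 2 times higher in both cdKO 2 and cdKO 4 than in any other sample. Genes below that mean were not examined, and these samples were picked for their Cd74 level. For Cd74 the lower of the 2 values was 269 times the highest of the other 8, and for the next gene in this order, Tshr, the ratio was 1.66. Across the 10 samples, the genes with levels most like those of Cd74 (Pearson's r of log2(CPM + 0.5)) were A130010J15Rik (r = 0.91), Gm7993 (0.83), Traf3ip3 (0.79), Gm13301 (0.78) and Gm17709 (0.76). These r values rest on the same pair of samples and share their libraries, and the differences behind them were small. A130010J15Rik had 12.5 and 12.4 CPM in cdKO 2 and 4, and the lower of these was 1.24 times the highest of the other 8.

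The genes beside Cd74 did not share its pattern. Of the 12 protein-coding genes within 500 kb with a mean of at least 0.5 CPM, 0 had both cdKO 2 and cdKO 4 above, or both below, the other 8 samples. The nearest, Tcof1, begins 1.10 kb after Cd74 and had 48.8 and 59.6 CPM in cdKO 2 and 4, within the range of 26.7 to 77.6 CPM in the other samples. Cd74 (ENSMUSG00000024610) lies on the plus strand at chr18:60803848-60812652 (GRCm38), 3.53 Mb from Oc2 on the same chromosome. The cdKO samples with Cd74 signal were also those with counts on Oc1 exon 1, 17 and 3. Whether this bears on the Cd74 signal was not tested.

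In cdKO 2 and 4 the Cd74 counts spread over all 13 exon bins, with more on exon 1 in cdKO 4 than in cdKO 2. Exon 2 (chr18:60807908-60808077) had 583 counts in cdKO 2 and 653 in cdKO 4, and the highest bin, in the last exon, had 887 and 1072. These highest bins put the number of Cd74 fragments at no fewer than 887 and 1072. Exon 1 (chr18:60803848-60804010), which holds the annotated start, had only 8 counts in cdKO 2 and 41 in cdKO 4. Per base, exon 1 had 0.0143 times the counts of exon 2 in cdKO 2 and 0.0655 times in cdKO 4. For comparison, genes whose coding transcripts all begin in the first exon, with at least 100 bases in both exons and 100 counts on the second, had median ratios of 0.508 (1799 genes, cdKO 2) and 0.487 (1807 genes, cdKO 4). Of those genes, 0.389% in cdKO 2 and 1.60% in cdKO 4 had a ratio at or below that of Cd74, itself included.

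Cd74 has an alternative exon of 192 bases (chr18:60811294-60811485), left out of the shorter p31 form of the invariant chain and included in the longer p41 form. It had 66 counts in cdKO 2 and 112 in cdKO 4. The exons on its sides had 745 and 652 counts in cdKO 2, and 971 and 860 in cdKO 4. The alternative exon thus held 9.45% and 12.2% of the mean of its neighbours. These shares are of counts not divided by length, and the neighbours are shorter, at 91 and 63 bases, so per base the shares are lower. In the other 8 samples no count fell on the alternative exon, nor on exon 1.

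**Figure D2:**
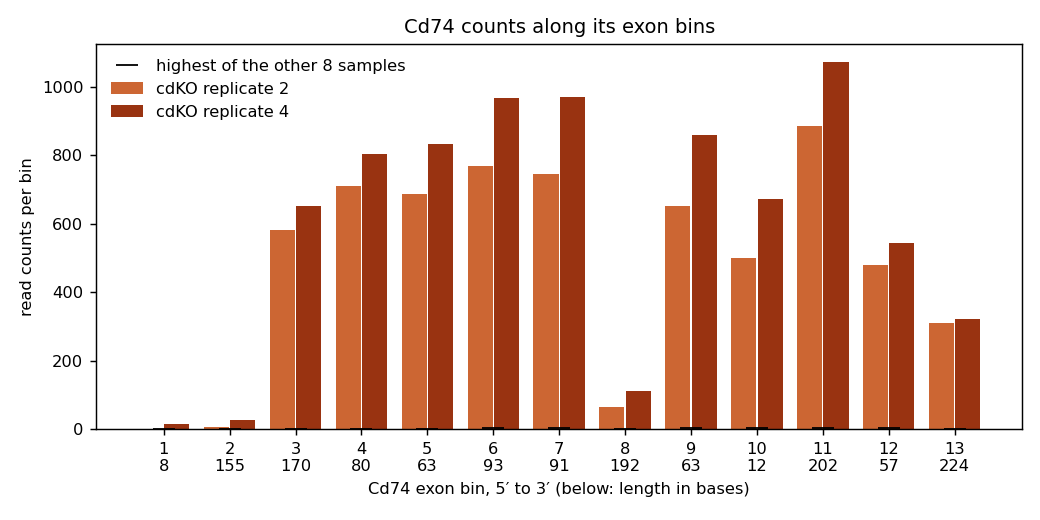
Read counts on the 13 exon bins of Cd74 (horizontal axis, 5′ to 3′, with bin lengths in bases) in cdKO replicates 2 and 4 (bars) and the highest value among the other 8 samples (black marks). Bins 1 and 2, which make up exon 1, and bin 8, the alternative exon of 192 bases, are low in both cdKO samples, while exon 2 has 583 and 653 counts.

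The macrophage genes did not follow Cd74. Aif1 (chr17:35170991-35176068), which encodes the calcium-binding protein Iba1, had 2, 0, 0, 0 and 0 counts in controls 1 to 5 and 13, 0, 27, 0 and 29 in cdKO 1 to 5. It was thus at 0 in both samples with Cd74 signal and above 3 counts in the other 3 cdKO samples. No Aif1 bin held more than 6 counts in any sample, and its counts lay on 9 of its 20 bins. C1qa, a chain of complement C1q, had 0, 9, 0, 1 and 4 counts in controls and 0, 10, 9, 1 and 0 in cdKO, so the groups overlapped. C1qb, its partner chain, had 8 counts in cdKO 3 and 0 in the other 9 samples. Tyrobp, a signalling adaptor of myeloid cells, had 1 count in control 1, and Cx3cr1, the fractalkine receptor of microglia, had 1 count in control 4, with 0 in all other samples.

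Summed over Aif1, C1qa, C1qb, Tyrobp and Cx3cr1, the level was 0.119 CPM in cdKO 2 and 0.0119 CPM in cdKO 4, the samples with Cd74 signal. The highest sums, 0.540 and 0.571 CPM, were those of cdKO 3 and 5, in which Cd74 was at 0.282 and 0.157 CPM. Controls ranged from 0 to 0.0863 CPM. The genes most like this sum across the 10 samples were Sf3b6 and Gm6274 (r = 0.94 each), Gm3531 and Rpl21 (0.93 each) and Gm6581 (0.92), with the highest levels in cdKO 5 and 3. Rpl21 encodes a ribosomal protein and had 966 and 570 CPM in cdKO 5 and 3. This likeness is a description over 10 libraries, and a sum of 0 to 44 counts per sample gives it little precision.

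**Figure D3:**
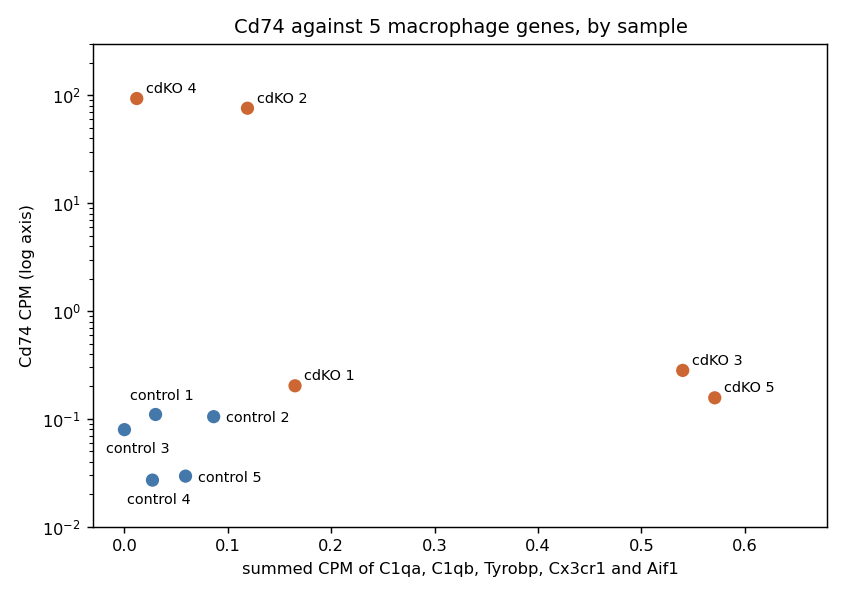
Cd74 level (vertical axis, CPM, logarithmic) against the summed level of C1qa, C1qb, Tyrobp, Cx3cr1 and Aif1 (horizontal axis, CPM, linear), 1 point per sample, controls in blue and cdKO in orange. The samples high in Cd74, cdKO 2 and 4, have sums of 0.119 and 0.0119 CPM, and the samples with the highest sums, cdKO 3 and 5, have little Cd74.

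Because cdKO 2 and 4 form a cluster of their own for Cd74, no correlation over all 10 samples was tested, and the r values over 10 samples given above only order the genes. Within the other 8, the log2(CPM + 0.5) of Cd74 was compared with that of 9 genes outside the group, of which C1qc was at 0 throughout and gave no value. The values of Csf1r are almost wholly counts on a bin shared with Hmgxb3, and those of Ptprc come almost wholly from control 2. Neither relation thus measures a macrophage marker across samples. Fcer1g and Laptm5 had at most 9 and 24 counts in a sample, or 0.133 and 0.325 CPM, under the 0.5 added to each level. Their relations thus rest on few counts and say little about macrophages. Pearson's r ranged from -0.60 for Fcer1g to 0.83 for Hbb-y. None of the 8 relations had an adjusted p under 0.05 for Pearson's r in an exact permutation test (two-sided, Benjamini-Hochberg). That of Hbb-y, an embryonic globin, was the nearest (r = 0.83, p = 0.0118, adjusted p = 0.0944; Spearman's rho = 0.905, p = 0.00456, adjusted p = 0.0365; exact permutation, 8 samples). Leaving out cdKO 3 and cdKO 1, the samples farthest from the Cd74 median, gave r = 0.932 for Hbb-y. The Cd74 values behind these relations are 2 to 23 counts per sample. The 8 samples are the 5 controls and cdKO 1, 3 and 5, and the permutation mixed both groups. Cd74 was at 0.0271 to 0.110 CPM in these controls and at 0.157 to 0.282 CPM in these cdKO samples. A relation among the 8 can thus not be told apart from a difference between genotypes.

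The wider list of 32 other macrophage markers was counted on bins that belong to a single gene, since shared bins mislead here. Csf1r, the receptor through which macrophages sense their growth factor CSF1, had 3371 counts in all, but 99.9% of them lay on 1 bin shared with Hmgxb3, and its own 23 bins held 2 counts. Stab1, a scavenger receptor, had 66779 counts, of which 47 lay on bins not shared with Nt5dc2. On their own bins, 16 of the 32 markers had no more than 3 counts in any sample, and 6 of these (C1qc, Trem2, Cybb, Ms4a7, Fcgr3 and Cd53) were at 0 in all 10. Spi1, which encodes the myeloid factor PU.1, had 1 count in cdKO 3 and 0 elsewhere. A further 10 markers had between 4 and 100 counts in their highest sample. Ptprc, the pan-leukocyte CD45, had 49 of its 50 counts in control 2, and Adgre1, which encodes F4/80, had 10 and 25 counts in cdKO 3 and 4 and 0 in the others.

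The 6 markers that passed 100 counts in a sample were Cd68, Tmem119, Irf8, Pf4, Coro1a and Hpgds. Coro1a, an actin regulator, had 1231 to 7898 counts on its own bins in controls and 2804 to 11084 in cdKO. Irf8, a myeloid transcription factor, had 374 to 821 counts in controls and 114 to 745 in cdKO, with counts on 19 of its 20 bins. Tmem119, a marker of adult microglia, had 57 to 772 counts in controls and 145 to 818 in cdKO. Of its counts 89.1% lay on 1 bin, which is 1909 bases of the gene's 2.315 kb of exon. Pf4, the platelet factor that embryonic macrophages also express, had 268 and 265 counts in cdKO 3 and 5 and at most 53 in the other samples, so cdKO 2 and 4, with 44 and 53, were not the highest.

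**Figure D4:**
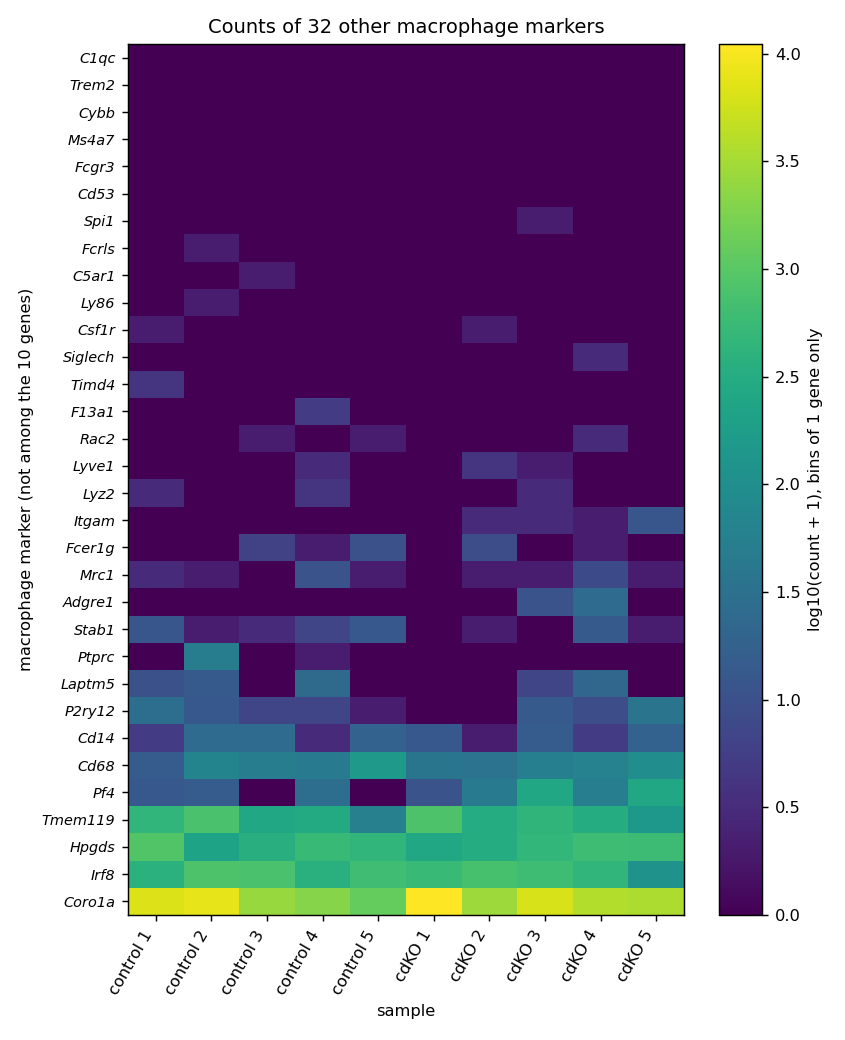
Counts of the 32 other macrophage markers (rows) in each sample (columns) on bins that belong to 1 gene only, coloured by log10(count + 1). Most rows, from C1qc at the top to Adgre1, have few or no counts, Coro1a, Irf8, Hpgds and Tmem119 at the bottom have counts in every sample, and the columns of cdKO 2 and 4 do not stand out.

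The MHC class II chain genes lie together on chromosome 17 (H2-Ab1 at chr17:34257689-34269419, H2-Aa at chr17:34282744-34287823 and H2-Eb1 at chr17:34305867-34316674), and their RNA was present at low levels in both groups. H2-Ab1, the beta chain of I-A, had 614, 892, 261, 19 and 351 counts in controls 1 to 5 and 439, 328, 436, 483 and 436 in cdKO 1 to 5. Control 4 was thus far below the other 9 samples, and the remaining values overlapped between groups. H2-Eb1, the beta chain of I-E, had 40, 70, 126, 62 and 129 counts in controls and 162, 156, 32, 45 and 36 in cdKO, with overlapping groups. H2-Aa, the alpha chain that pairs with the H2-Ab1 product, had 11, 28, 52, 13 and 8 counts in controls and 21, 14, 18, 16 and 0 in cdKO. Its counts were thus few in every sample, and in cdKO 5 there was none.

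Per kb of exon, the mean level over the 10 samples was 3.19 CPM per kb for H2-Ab1, 0.912 for H2-Eb1 and 0.113 for H2-Aa. In cdKO 4, Cd74 reached 66.4 CPM per kb, above the highest H2-Ab1 value in any sample, 5.24 CPM per kb. H2-Ab1 had 3.90 and 5.76 CPM in cdKO 2 and 4, within the 0.257 to 8.58 CPM of the other samples. H2-Aa had 0.166 and 0.191 CPM there, also within the range of the others, 0 to 0.591 CPM. H2-Eb1 had 1.86 CPM in cdKO 2 and 0.536 CPM in cdKO 4, again within the range of the others, 0.393 to 2.06 CPM. None of these 3 chains was above the other samples where Cd74 was high.

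Along H2-Eb1, the first exon (chr17:34305877-34306047), next to the promoter printed above, had 0 counts in all 10 samples, while the other 5 bins had 126 to 215 counts each over the 10 samples. Exon 2 alone held 172 counts, 94 in controls and 78 in cdKO. Of 2798 genes of the kind described for Cd74, counted over all samples, 0.250% had no counts on the first exon with at least 100 on the second, H2-Eb1 included. H2-Ab1 had 276 counts on the first exon of the deposited bins (chr17:34263209-34263405) and 767 on its second. Its counts fell on all 10 bins, but in control 4 on 4 of them, 12 of the 19 on the second exon. H2-Aa had 6 counts on the 96 bases that make up most of its first exon, and at most 15 counts on any bin in any sample.

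**Figure D5:**
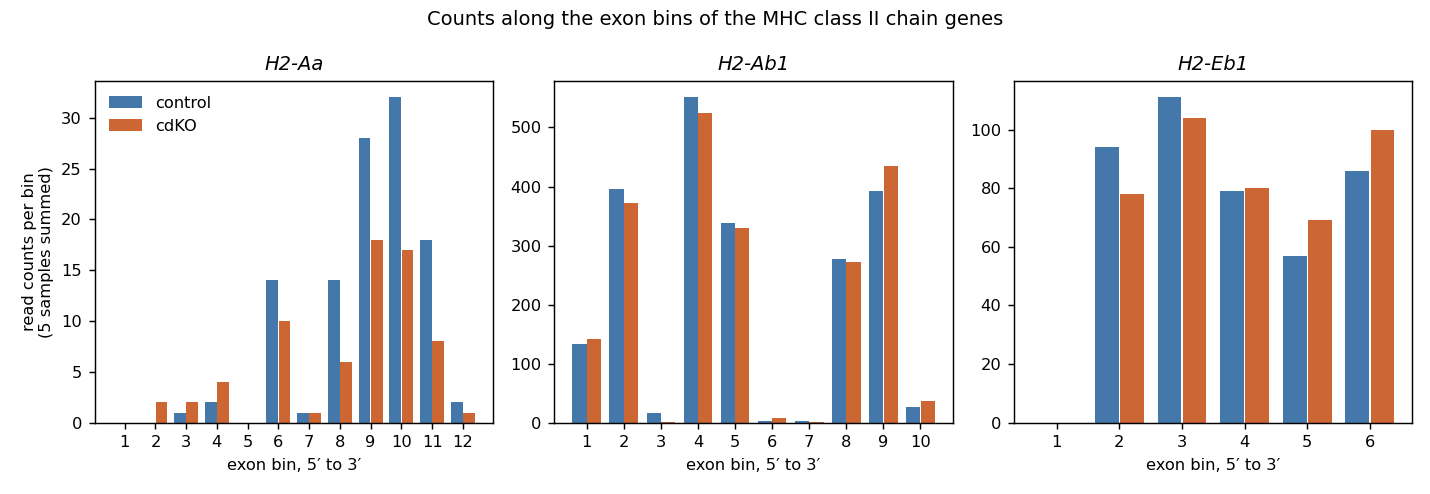
Read counts per exon bin, 5′ to 3′, of H2-Aa, H2-Ab1 and H2-Eb1, summed over the 5 control samples (blue) and the 5 cdKO samples (orange), each panel with its own linear axis. The first bin of H2-Eb1 has 0 counts in both groups, while that of H2-Ab1 has 134 in controls and 142 in cdKO.

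Gngt2 (chr11:95837216-95845734), like C1qb, was at 0 in every control. It had 10, 11, 30, 4 and 24 counts in cdKO 1 to 5, so every cdKO sample lay above every control, on the TMM scale and with library size alone. The share of all genes that separated in this way is the 0.166% given above, and since the gene was chosen with its values known, nothing is read from it. By the highest bin, its fragments numbered at least 3, 4, 9, 1 and 6 in cdKO 1 to 5. Those 23 fragments, set against a limit of 3 counts over the 5 controls together, give a ratio of 8.77 in CPM. This ratio is a description that leaves out the counting error of the 23 and the spread between samples. The first 3 bins of Gngt2 are shared with Abi3, but 68 of its 79 counts lie on bins of its own. The highest values were in cdKO 3 and 5, and cdKO 2 and 4 had 11 and 4 counts, so its order differed from that of Cd74.

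Between genotypes, 7 of the 10 genes (Cd74, Aif1, C1qa, C1qb, Tyrobp, Cx3cr1 and Gngt2) did not pass the filter on low counts. This filter asks for about 10 counts at median depth in 5 samples. Cd74 missed it despite 14335 counts, since 14255 of these lay in cdKO 2 and 4. The 3 that passed had fitted log2 differences, cdKO minus control, of 0.33 (SE 0.60) for H2-Ab1, 0.08 (SE 0.57) for H2-Eb1 and -0.56 (SE 0.76) for H2-Aa, each smaller than its standard error. In a fit with no filter, Cd74 had a log2 difference of 8.85 (SE 1.67), which describes the pair of high samples and not the group. Over all 17840 genes that passed, edgeR's quasi-likelihood test called 0 at an adjusted p under 0.05 (0.00%) and 890 (4.99%) at an unadjusted p under 0.05. DESeq2 called 20 of 21356 (0.0937%) and limma-voom 3 of 17840 (0.0168%) at an adjusted p under 0.05. Cd74 and Gngt2 were among the 20 called by DESeq2, and since they were chosen with this contrast known, nothing is read from it. The median log2 difference of all genes tested was -0.018, and -0.15 with library size alone.

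The remaining genes of class II presentation were followed through a list of 18, of which 17 were found. Of the 11 that passed the filter, 0 were called by edgeR, 0 had an unadjusted p under 0.05, and DESeq2 and limma-voom called 0, with a median log2 difference of -0.19. The general factors were present throughout. Nfyc, a subunit of NF-Y, had 143 to 211 CPM in controls and 56.9 to 195 CPM in cdKO, Rfxap had 33.0 to 85.6 and 31.3 to 46.0 CPM, and Rfx5 had 4.62 to 10.7 and 1.97 to 7.38 CPM. Ciita, the coactivator specific to class II genes, had 3 to 17 counts in both groups, with 5 in cdKO 2 and 14 in cdKO 4. H2-DMa, which helps to load peptides, had counts on all 7 of its bins. Ctss, a protease that trims the invariant chain, had 2 counts in cdKO 5 and 0 in the other samples, and H2-Ob was at 0.

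Other immune and accessory lists give the setting. Of the 32 other macrophage markers, 9 passed the filter, which here took counts from all bins, shared ones included. Among them Csf1r and Stab1 had 99.9% of their counts on shared bins, so their fits do not measure a macrophage marker. On the list, edgeR, DESeq2 and limma-voom called 0 at an adjusted p under 0.05, and 1 marker, Pf4, had an unadjusted p under 0.05 in edgeR. The 8 dendritic and 8 lymphoid markers had 3 and 4 members, respectively, with no more than 3 counts in any sample. Zbtb46 was the most abundant dendritic marker, with 31.3 and 31.4 CPM in cdKO 2 and 4 and 20.5 to 36.4 CPM in controls. Among the 10 MHC class I genes, H2-K1 had 33.1 and 52.7 CPM in cdKO 2 and 4 and 43.2 to 122 CPM in controls, and B2m, its light chain, 23.1 and 25.9 against at most 29.5 CPM. Of 12 interferon-response genes, 3 had no more than 3 counts in any sample. Of these 4 lists, 0 genes were called by edgeR, DESeq2 or limma-voom, and 0 had an unadjusted p under 0.05 in edgeR.

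Blood and connective tissue markers were followed as possible companions of the sorted cells. The 11 erythroid genes found, led by Hbb-y, Hba-x and Hbb-bh1, summed to 55.2 and 66.9 CPM in cdKO 3 and 5, against 7.81 and 2.98 CPM in cdKO 2 and 4, 10.9 CPM in cdKO 1 and 1.30 to 19.4 CPM in controls. The 10 mesenchymal genes, led by Dcn and Col3a1, summed to 99.6 and 134 CPM in cdKO 3 and 5, 29.5 and 77.6 CPM in cdKO 2 and 4, 72.1 CPM in cdKO 1 and 15.0 to 118 CPM in controls. The 10 endothelial genes, led by Egfl7, summed to 18.1 to 31.7 CPM in controls and 18.9 to 36.4 CPM in cdKO, and the 6 neural crest genes to 9.67 to 32.8 and 9.81 to 27.4 CPM. In cdKO 2 and 4, none of these sums exceeded the range of the controls. The part of such cells in the Aif1, Pf4 and Gngt2 counts of cdKO 3 and 5 was not tested.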

How the data were processed

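The authors deposited raw counts of reads per exon bin for 10 samples of sorted YFP-positive cells (5 control, 5 cdKO), with no normalization. The submitters' processing notes name bcl2fastq 2.17, Trimmomatic 0.36, STAR 2.5.2b, Subread 1.5.2, DESeq2 and GRCm38. Reads were counted on every bin they touch, without strand. Of 49644 gene identifiers, 49384 were found in GENCODE M21. Bins were summed per gene, and 3974 of 425461 bins (1.17% of counts) that fitted no single gene were left out.

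Genes passing filterByExpr (minimum count 10) were TMM scaled and tested with edgeR 4.0.16 in R 4.3.3 (quasi-likelihood, Benjamini-Hochberg), with no covariate. DESeq2 1.42.0, limma-voom (limma 3.58.1), other scalings and the omission of each sample were alternatives. No samples were duplicates (chi-square per degree of freedom of 121.3 or more within groups). This value was 1459 to 1899 between cdKO 5 and the other cdKO samples, and at most 602.8 among those. The fits were tested on simulated counts. The 10 genes and the marker lists were chosen with earlier results of these data known. Named genes were the 10, the 3 most abundant of each list (6 for macrophage and class II lists), any called, those at 0, and the 5 most like Cd74 or the macrophage genes. Others named, such as Adgre1, Ciita and Oc1, were chosen after their values were seen. A gene that this rule would name is not reported here.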

Additional observations from a re-analysis of the deposited data

Results flagged for a closer look

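Of the 20 groups of 5 samples (10 genes, control and cdKO), 16 had any spread, and in 4 of these a single sample stood apart from its group, all at or near the limit of detection. C1qb stood at 0.0983 CPM in cdKO 3, or 8 summed counts with 5 on its highest bin, and at 0 in the other cdKO samples. Aif1 stood at 0.0201 CPM (2 counts) in control 1, Tyrobp at 0.01 CPM (1 count) in control 1 and Cx3cr1 at 0.0136 CPM (1 count) in control 4, with 0 in the other controls. Chance alone sets a sample apart in about 1 of 20 such groups, and a lone count among zeros always does. The Cd74 values of cdKO 2 and 4 were not picked out in this way, since a pair of high samples leaves no single distant one.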

How the results depend on the processing

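The number of genes called between genotypes was 0 in edgeR and changed with the settings. DESeq2's Wald test called 20 genes, limma-voom 3, and edgeR 1 when scaled by library size alone and 1 when unfiltered. The number ranged from 0 to 4 when each sample was left out in turn, with 4 without control replicate 5 and 1 without cdKO replicate 5. It was 0 with DESeq2's size factors and 0 without cdKO replicates 2 and 4, a setting chosen after seeing the data. The count of called genes on the marker lists was 0 in all 13 alternatives tried. The correlations of same-numbered samples ran from -0.257 to 0.321. They were not compared with those of differently numbered samples, so whether the replicate numbers pair the samples was not tested. With the replicate number as a block, edgeR called 0 genes, and 462 instead of 890 at an unadjusted p under 0.05.

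The share of Cd74 CPM in cdKO 2 and 4 was 99.22% by the single highest bin, against 99.42%, and ranged from 98.71% to 99.58% when each sample was left out, an alternative added after seeing the data. By Pearson's r, the number of the 8 Cd74 relations with an adjusted p under 0.05 was 0 in the reported setting and under all alternatives except without cdKO replicate 1, so that it ranged from 0 to 1 over the omissions. The log2 difference of H2-Aa was 0.02 without control replicate 3 and -0.78 to -0.26 otherwise. That of H2-Eb1 ranged from -0.26 to 0.41 and that of H2-Ab1 from 0.00 to 0.90. Depth limits Aif1, C1qa, C1qb, Tyrobp and Cx3cr1, none of which passed 29 counts in a sample.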

Other observations

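Genes in which both cdKO 2 and cdKO 4 lay above the other 8 samples numbered 137 of the 15024 with a mean of at least 0.5 CPM, and 7 of these (5.11%), Cd74 included, were on chromosome 18, which holds 2.44% of the genes at this level. Both samples lay below the other 8 in 103 genes, of which 1 (0.971%) was on chromosome 18. These counts are a description, since the samples were picked for their Cd74 level.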
